A study of Mus musculus with 16 samples.

Results

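Oocytes of young mice were compared before and after meiotic maturation: 4 arrays of mature eggs, halted at the second metaphase of meiosis (MII), were set against 4 arrays of oocytes at the germinal vesicle (GV) stage, all from mice of 6 weeks. These were 8 of the 16 arrays of a study of maternal ageing in B6D2 mice, and were chosen by the stage and age in their labels. The other 8 arrays held GV oocytes and MII eggs of mice of 66 weeks, and are used here to set the change at 6 weeks beside that at the older age. They also enter the shared estimate of the spread behind the p-values of single genes. B6D2 is a hybrid of the C57BL/6 and DBA/2 strains, and no treatment or mutation is named for any group. The sources used here give neither the number of oocytes per array, nor how ovulation was brought about, nor whether replicate arrays stand for separate mice, so the p-values measure the spread between arrays, which may be technical.

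A GV oocyte is fully grown and held in prophase of the first meiotic division by a high level of cyclic AMP. When the hold is lifted, cyclin-dependent kinase 1 becomes active, the nuclear envelope breaks down, a polar body is cast off and the egg stops again at the second metaphase to await the sperm. The genome is close to silent in this time, and the cell lives on mRNAs stored during growth, some of which are translated and others taken down. Total RNA was turned into biotinylated cRNA by an assay for small samples, which starts from poly(A) tails, and each value is a signal relative to the total of its array. A lower number of transcripts and a shorter poly(A) tail cannot be told apart in such values, and neither can fewer cells of a type and less RNA per cell. For a rise, more transcripts, a longer tail and a larger share of the array's total cannot be told apart either.

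The median signal lay between 28.2 and 31.1 on the GV arrays and between 29.5 and 33.5 on the MII arrays (exact two-sided permutation test, 4 against 4 arrays, p = 0.257). Replicate arrays correlated at 0.963 to 0.970 over all probe sets on the log2 scale, and arrays of different stages at 0.876 to 0.884. All 11 oocyte markers looked for were measured, with mean signals of 562 to 7121 in GV oocytes and 184 to 9604 in MII eggs. Control probe sets for 18S ribosomal RNA, which carries no long poly(A) tail, were brighter after maturation. The 5′ set went from 682 ± 68.4 (SD, n = 4) to 4971 ± 98.3, the middle set from 525 ± 38.7 to 6163 ± 548, and the 3′ set from 406 ± 62.3 to 1407 ± 323. The stages did not overlap in any of these sets (exact permutation p = 0.0286 each, the smallest that 4 against 4 arrays can give). The 3′ to 5′ ratio of actin, a sign of RNA integrity, was 3.02 ± 0.26 (SD, n = 4) on the log2 scale in GV oocytes and 2.85 ± 0.10 in MII eggs (exact permutation p = 0.257). The same ratio of 18S ribosomal RNA fell from -0.76 ± 0.13 to -1.85 ± 0.32, and the share of the summed signal in the 100 brightest probe sets rose from 5.86% ± 0.44 to 6.97% ± 0.11 (SD, n = 4, exact permutation p = 0.0286 each). The 18 hybridisation controls, bacterial and phage RNAs added just before hybridisation, were brighter on the MII arrays by 0.37 on the log2 scale (exact permutation p = 0.0286). The part of these shifts in the changes described here was not tested, except that the arrays were also scaled to the hybridisation controls.

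Markers of other ovarian cells were low at both stages, with some array to array spread. Of 23 cumulus and granulosa cell markers measured, 19 had a mean signal under 100 at both stages, among them Amh (2.51 in GV and 3.63 in MII), and the sum over the markers was 1338 to 1898 on GV arrays and 1463 to 1652 on MII arrays. Gja1, the gap junction protein of granulosa cells, gave signals of 29.2, 28.5, 197 and 183 on GV arrays 1 to 4 and of 15.1, 38.3, 24.3 and 18.6 on the MII arrays. Hsd3b1, an enzyme of steroid synthesis, gave 7.97, 14.7, 72 and 102 on the GV arrays. For both genes GV arrays 3 and 4 were the highest of the 8. Of the cumulus markers 3 were called higher, Nr5a2 (log2 change 0.28, with another probe set that fell), Kitl (0.29) and Ptx3 (1.23), and 4 lower, Gja1 (-1.50), Hsd3b1 (-1.44), Hsd17b1 (-1.77) and Cyp11a1 (-0.53). The sum over 15 markers of stroma and endothelium was 485 to 577 on GV arrays and 665 to 846 on MII arrays, without overlap, and 3 of them were called higher (Kdr, Pecam1 and Cdh5) and none lower. The sum over 10 blood and immune markers was 346 to 516 and 412 to 519, with 3 called higher (Cd68, Tyrobp and Ptprc) and none lower. Of all these calls only that of Cdh5 held under every alternative that could be run, and those of Gja1 and Hsd3b1 were lost without GV array 3 and without GV array 4, among others. Of cumulus markers 13.0% were called higher and 17.4% lower, and 20% of stroma and 30% of blood markers higher. Over all genes these shares were 25.1% and 22.2%. Among genes with a signal under 100 in GV oocytes of 66 weeks they were 13.0% and 8.24%. Apart from Nr5a2, the highest signal of a called marker on any young array was 197, that of Gja1 on GV array 3, and the part of such cells in the other changes was not tested, except by leaving out arrays. Without GV arrays 3 and 4, 7396 probe sets were called higher and 6620 lower, against 9049 and 7213 with all arrays.

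**Figure D1:**
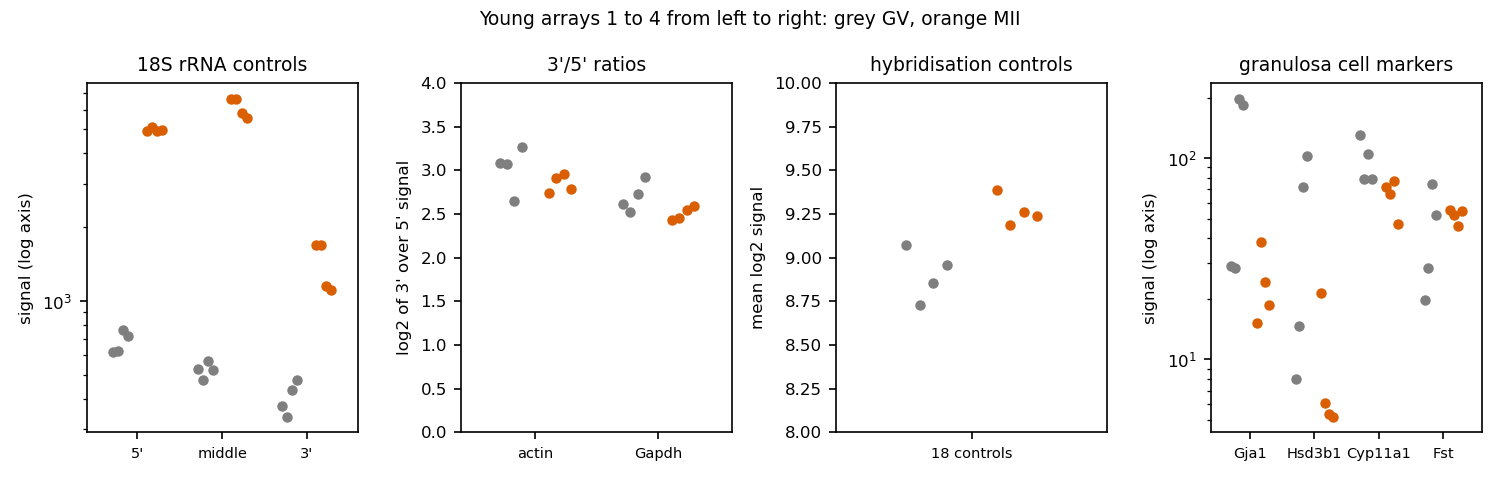
Young arrays 1 to 4 of each stage (grey, GV; orange, MII), one point per array: signal of the 18S ribosomal RNA controls on a log axis, log2 of the 3′ over 5′ signal of actin and Gapdh, mean log2 signal of the 18 hybridisation controls (axis from 8 to 10), and signal of 4 granulosa cell markers on a log axis. The 18S signals of the MII arrays lie above all GV arrays, and Gja1 and Hsd3b1 are highest on GV arrays 3 and 4.

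A large share of the measured transcriptome differed between the stages. With the scaling of the authors there were many moderate rises and fewer but far deeper falls. Of 45037 probe sets, 16262 were called changed at an adjusted p under 0.05 (36.1%), 9049 of them higher in MII eggs (20.1%) and 7213 lower (16%). Taking each gene by its brightest probe set, 8614 of 18193 genes were called (47.3%), 4571 higher (25.1%) and 4043 lower (22.2%). At least 2-fold changes were found for 1655 risen genes (9.1%) and 2784 fallen genes (15.3%), and at least 4-fold changes for 35 (0.192%) and 1259 (6.92%). Counted over probe sets, 3472 rose (7.71%) and 5036 fell (11.2%) by at least 2-fold, and 105 (0.233%) and 2218 (4.92%) by at least 4-fold. The signals of the 4 GV and the 4 MII arrays did not overlap for 8478 genes (46.6%). The median gene changed by 0.12 on the log2 scale. Scaling to the hybridisation controls, added after those controls were seen, lowered the median probe set by 0.37, from 0.14 to -0.23. It left 29.9% of called probe sets on the higher side, against 55.6% with the scaling of the authors, and called 2559 genes higher and 5486 lower. Where a count given for a gene list moved by over 1.5 times, or its balance of rises and falls turned, under this scaling (here called control scaling), quantile normalization or with each gene as the mean of its probe sets, that count is given too. The count of any list is to be read against the 25.1% higher and 22.2% lower over all genes. Bright genes were called more often: of 8119 genes in the upper 30% of probe sets by signal 3750 were higher and 2975 lower. The count of a list of bright genes is to be read against these as well.

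Falls of 4-fold or more were mostly of transcripts that were well measured in the oocyte. Genes were binned by their signal in GV oocytes of 66 weeks, arrays that do not enter the log2 change at 6 weeks. They do enter the calls, through the spread and the choice of probe sets, both taken over all 16 arrays. Of 10551 genes with a signal under 100, 13.0% were called higher, 8.24% lower and 1.10% lower by at least 4-fold. Of 2473 genes between 500 and 2000, 48.0% were higher, 43.3% lower and 19.0% lower by at least 4-fold. Among 694 genes at 2000 or more, 49.7% rose and 41.8% fell. The middle 50% of log2 changes ran from -1.58 to 0.87 for genes between 500 and 2000, so that falls reached farther than rises.

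**Figure D2:**
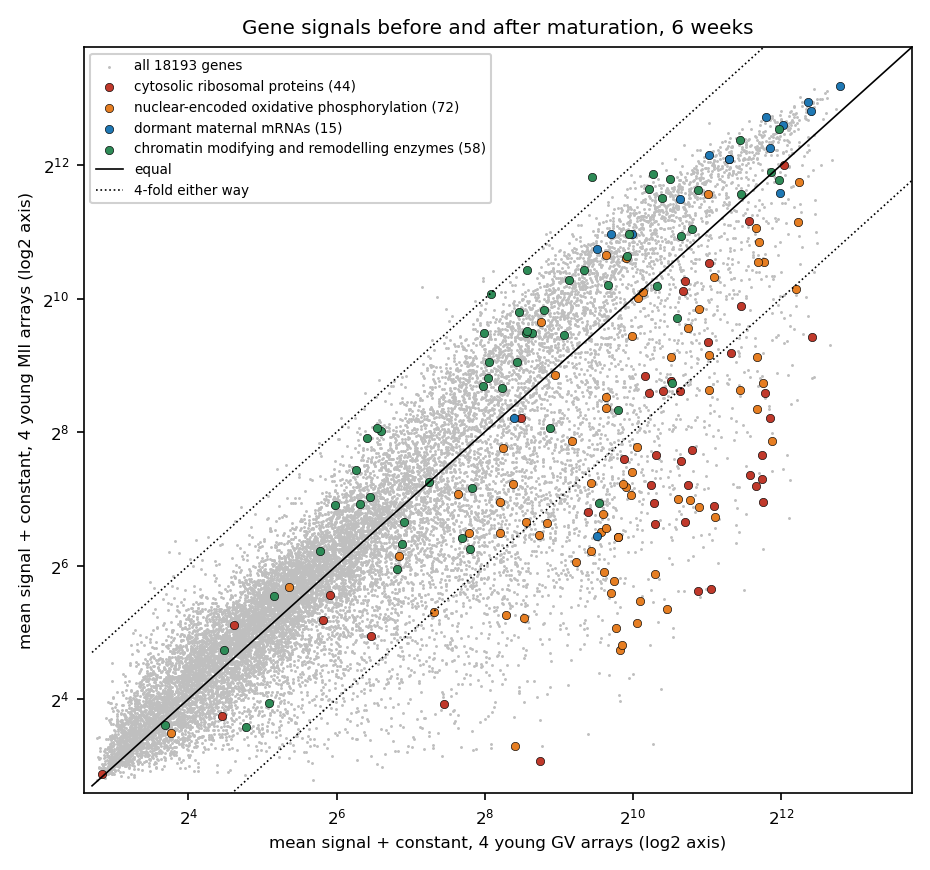
Mean signal plus the constant of 6.49 on the 4 young GV arrays (x) and the 4 young MII arrays (y), both on log2 axes, for 18193 genes (grey) and 4 gene lists (colours); the solid line marks equal signals and the dotted lines 4-fold changes. Rises form a narrow band above the line, while 1259 genes lie at least 4-fold below it and are called, many ribosomal protein and respiratory chain genes among them.

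The 12 largest rises ranged from 2.14 to 3.12 on the log2 scale. Tet3, an enzyme that oxidises 5-methylcytosine and is known to act on the paternal genome after fertilization, gave signals of 119.7, 219, 121 and 81.9 on the GV arrays and 1151, 1101, 1216 and 1151 on the MII arrays (probe set 1439324_at). The highest GV array lay far below the lowest MII array, and the log2 change was 3.12 ± 0.19 (SE, adjusted p = 4.7e-11). Kdm6b, a demethylase of lysine 27 of histone H3, had signals of 668, 573, 830.0 and 714 in GV and 3434, 3352, 3757 and 3937 in MII, a log2 change of 2.38 ± 0.09 (SE, adjusted p = 3.4e-14). Nipbl, which loads cohesin onto chromosomes, gave 466, 448, 401 and 484 in GV and 2033, 2040.1, 1986 and 1945 in MII, a log2 change of 2.14 ± 0.07 (SE, adjusted p = 1.8e-14). Neither gene had overlapping stages, and their MII arrays differed little among themselves. Another probe set of Nipbl, of low signal, was called lower (46.3 in GV and 20.3 in MII). The other large rises were of Thumpd1, an adaptor of RNA acetylation (log2 change 2.69), Tanc2 (2.37), Unc13b (2.34), Arhgap28 (2.32), Gna13, a G protein subunit (2.30), Piwil1, a Piwi protein (2.23), Phlda1 (2.20), Sema5a, a semaphorin (2.18), and E2f2, a cell cycle transcription factor (2.15). For Tanc2, Arhgap28, Gna13, Sema5a and E2f2 another probe set was called lower, as for Nipbl; that of E2f2 went from 441 to 232.

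The 12 largest falls ranged from -5.52 to -6.95 on the log2 scale. Cops6, a subunit of the COP9 signalosome that removes NEDD8 from cullins, had 1204, 1249, 1211 and 1249.7 on the GV arrays and 4.57, 3.14, 4.08 and 2.29 on the MII arrays (probe set 1451366_at), a log2 change of -6.95 ± 0.33 (SE, adjusted p = 1.3e-12). Polr3a, the largest subunit of RNA polymerase III, fell from 3718, 3420.0, 3334 and 3379.9 to 70.1, 66.7, 77.2 and 63.8, a log2 change of -5.52 ± 0.09 (SE, adjusted p = 1.5e-18). Each stage of Polr3a was tight and the gap between the stages exceeded the spread many times. The rest of the 12 largest falls were BC004004 (log2 change -6.26), Timm17a, part of the mitochondrial import channel (-6.11), Pdcd2 (-5.92), Zfp61 (-5.90), Dis3l, a cytoplasmic exosome nuclease (-5.86), Lrpap1, a chaperone of lipoprotein receptors (-5.84), Eif3m, a subunit of translation initiation factor 3 (-5.81), the ribosomal protein gene Rps19 (-5.68), Gm12338 (-5.64) and Arhgef16 (-5.54). For BC004004 another probe set was called higher (118 in GV and 151 in MII). Where the MII signal is as low as the constant, the size of the fall depends on the constant added before the logarithm: that of Cops6 was -5.41 with 4 times the constant and -7.92 with the constant divided by 4.

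**Figure D3:**
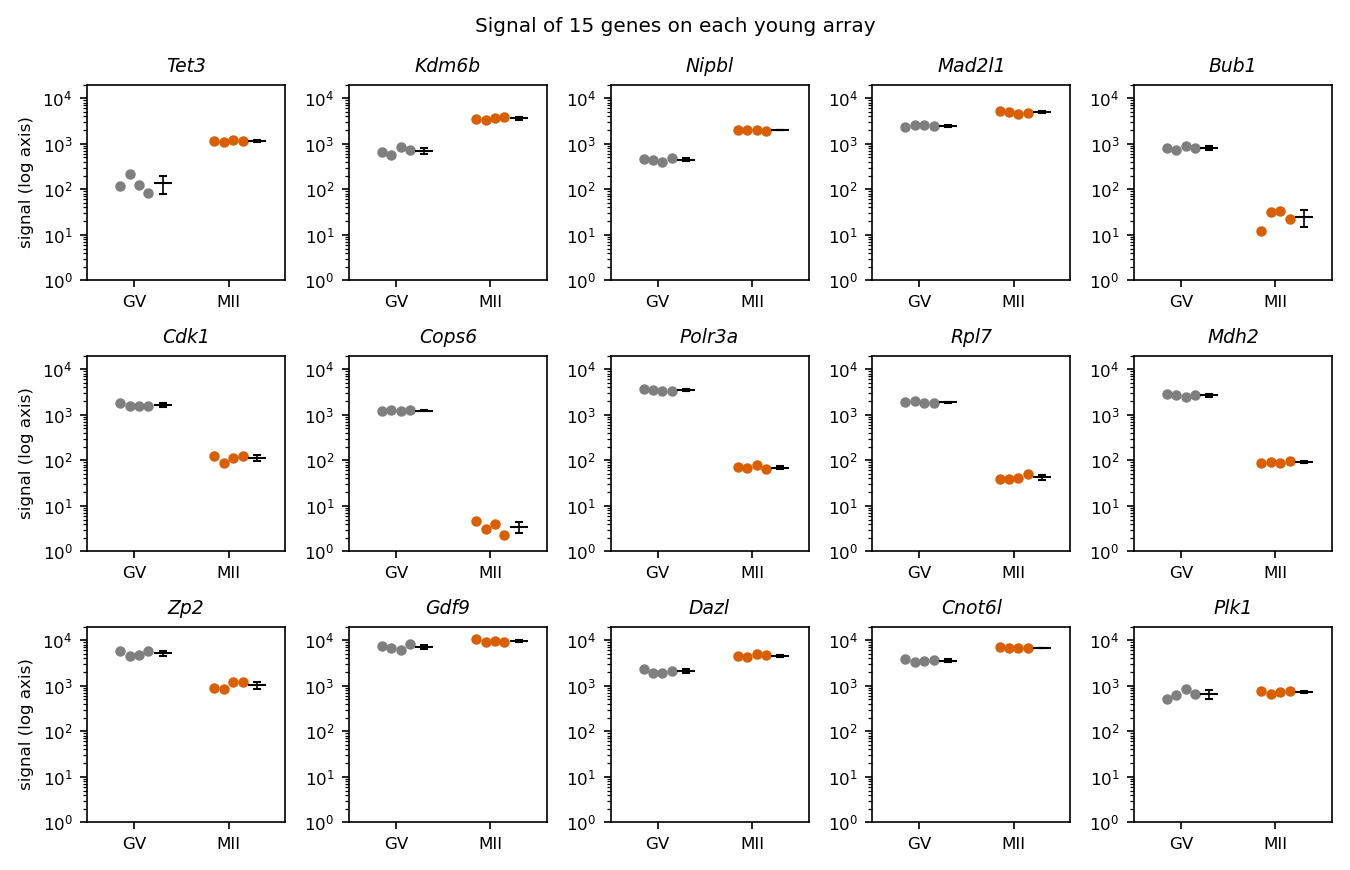
Signal on a log axis of 15 genes on young arrays 1 to 4 of each stage (points; grey, GV; orange, MII), with the mean and SD over the 4 arrays beside them. Tet3, Kdm6b, Nipbl, Mad2l1, Gdf9, Dazl and Cnot6l are higher on all MII arrays, Bub1, Cdk1, Cops6, Polr3a, Rpl7, Mdh2 and Zp2 lower, and the stages of Plk1 overlap.

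Genes that hold the oocyte in prophase were mostly higher once the hold had been released. Of 14 measured genes of the cyclic AMP pathway, 10 were called higher and 2 lower (over all genes, 25.1% and 22.2%). Their median log2 change was 0.67 (0.12 over all genes, 0.31 to 0.71 under the alternatives). Control scaling left 6 higher and 2 lower. Gpr3, the receptor that keeps cyclic AMP high, went from 397, 371, 413 and 447 in GV to 847, 864, 857 and 994 in MII, a log2 change of 1.12 ± 0.07 (SE, adjusted p = 1.9e-10). Adcy9, an adenylyl cyclase, rose by 1.44 on the log2 scale, although another probe set of it fell (354 in GV and 236 in MII), and Prkar2a, a regulatory subunit of protein kinase A, rose by 1.27. The genes that fell were Gja4, the oocyte's gap junction protein towards the cumulus cells, from 3778 to 873 (log2 change -2.10), and Gpr12, a relative of Gpr3 at low signal (43.2 to 13.2), which was not called without GV arrays 3 and 4 (adjusted p = 0.088). Pde3a, the phosphodiesterase whose activity ends the hold, was not called (log2 change 0.66, adjusted p = 0.093).

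Transcripts of the kinase that drives meiosis and of its regulators went both ways. Cdk1, the catalytic subunit of maturation promoting factor, had signals of 1831, 1569.6, 1585 and 1569.6 in GV and 126, 87.1, 112 and 122 in MII (probe set 1448314_at), a log2 change of -3.81 ± 0.11 (SE, adjusted p = 1.1e-15). Its 4 MII arrays all lay far below the lowest GV array. Of the cyclins, Ccnb2 rose by 0.64 (not called with control scaling) and Ccna2 by 1.06, while Ccnb3 fell from 269 to 12.8; Ccnb1 had no probe set assigned to it alone. Of 28 listed genes 11 were higher and 11 lower (7 and 11 with control scaling, 7 and 13 by the mean of probe sets). Mastl, the Greatwall kinase that restrains the opposing phosphatase, rose by 1.15 on its brighter probe set, and another set fell (449 in GV and 58.1 in MII). The phosphatase Cdc25a rose by 1.12 on the log2 scale with another set that fell (871 in GV and 299 in MII), and Cdc25b changed by -0.45, a fall not called after quantile normalization. Wee2, the oocyte's inhibitory kinase of Cdk1, changed by -0.40 ± 0.05 (SE, adjusted p = 3.1e-06), and another probe set rose (3147 in GV and 3712 in MII). Plk1, a kinase of mitotic entry, had 522, 619.9, 852 and 643 in GV and 767, 675, 727 and 760.2 in MII; the stages overlapped and no change was called (log2 change 0.17 ± 0.11, adjusted p = 0.26), whereas without GV array 3 the rise was called (0.30, adjusted p = 0.011).

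The Mos pathway, which keeps the egg at metaphase, showed changes of under 2-fold. Mos had signals of 3707, 3511, 3609 and 3936 in GV and 4747, 4513, 5278 and 5103 in MII, a log2 change of 0.41 ± 0.06 (SE, adjusted p = 1.5e-05). Every MII array was above every GV array, but the rise was not called with control scaling (0.04) or quantile normalization (0.13). Map2k1, the kinase above ERK, rose by 0.93 on the log2 scale. Of 6 measured genes 3 rose and 1 fell (1 and 3 with control scaling, 2 and 0 after quantile normalization, 3 and 2 by the mean of probe sets), the other rise being Braf (0.37), named after its value was seen and not called with control scaling, without MII array 2 or without GV arrays 3 and 4, and the fall Rps6ka3 (-0.51), a kinase below ERK, not called after quantile normalization.

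Subunits of one machine parted at maturation. In the anaphase-promoting complex, the ubiquitin ligase that ends metaphase, 5 of 18 genes rose and 11 fell (over all genes, 25.1% and 22.2%). The median log2 change of the complex was -0.55 (-0.91 to -0.45 under the alternatives, 0.12 over all genes). Control scaling left 3 risen and 11 fallen, and the mean of probe sets 3 and 10. Its activator Cdc20 had 1876, 2162, 2061 and 2049 in GV and 3454, 3629, 3359 and 3482 in MII, a log2 change of 0.77 ± 0.06 (SE, adjusted p = 5.0e-09). The alternative activator Fzr1, which is known to guard the prophase hold, went the other way, from 292, 303, 345 and 319 to 87.3, 84.9, 99 and 96.4, a log2 change of -1.71 ± 0.11 (SE, adjusted p = 9.7e-11). Among the core subunits Cdc27 rose by 1.15 and Anapc10 by 1.05, and the remaining rises, named after their values were seen, were Anapc1 (0.32) and Cdc26 (0.51), neither called with control scaling. Anapc7 changed by -3.05 and Anapc15 by -2.08, the former with another set called higher (84.8 in GV and 144 in MII).

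The spindle assembly checkpoint, which delays anaphase until chromosomes are attached, was split as deeply. Bub1, a checkpoint kinase, gave 812, 711, 905 and 816 on the GV arrays and 12.2, 31.9, 32.6 and 22.6 on the MII arrays, a log2 change of -4.76 ± 0.20 (SE, adjusted p = 1.9e-13). Its partner Bub1b gave 5891, 4583, 4919.9 and 5706 in GV and 7894, 7898, 8042 and 7746 in MII, a log2 change of 0.59 ± 0.07 (SE, adjusted p = 6.5e-07). These related kinases thus moved in opposite directions, without overlap of the stages in either. Mad2l1, the inhibitor of Cdc20, went from 2327, 2543, 2557 and 2481 to 5191, 4987, 4592 and 4776, a log2 change of 0.98 ± 0.05 (SE, adjusted p = 4.9e-12). Zwilch, part of the complex that brings Mad proteins to kinetochores, changed by -3.55, and Knl1, the scaffold that Bub proteins bind, by 0.87. Of 13 genes 5 rose and 6 fell (5 and 3 by the mean of probe sets); the other rises, named after their values were seen, were Kntc1 (0.45, not called with control scaling) and Mad2l1bp (0.93).

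At the kinetochore 9 of 27 genes rose and 15 fell (over all genes, 25.1% and 22.2%). The median log2 change was -0.37 (-0.74 to -0.07 under the alternatives). Cenpq, an inner kinetochore subunit, went from 1965 to 71.3 (log2 change -4.66) and Cenpm changed by -1.84, while Cenpa, the histone that marks centromeres, rose by 1.12 and Cenpn by 0.89. In the chromosomal passenger complex Aurkc, the germ cell Aurora kinase, went from 2199.6, 1993, 2099 and 2418 to 4127, 4383, 4195 and 4325, a log2 change of 0.97 ± 0.06 (SE, adjusted p = 2.0e-10). Birc5 (survivin) went from 3166 to 1576, Incenp changed by -0.61, and Cdca8 (borealin) by 0.36, which was not called with control scaling or quantile normalization. Aurka, the spindle pole kinase, narrowly missed the threshold (log2 change -0.16, adjusted p = 0.053), and was called lower in 7 of the alternatives.

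Most genes of sister chromatid cohesion rose: 14 of 19 were called higher (73.7%) and 2 lower (over all genes, 25.1% and 22.2%). The median log2 change was 0.70 (0.33 to 0.84 under the alternatives, 0.12 over all genes). Control scaling gave 11 and 4, and the mean of probe sets 12 and 4. Espl1, the separase that cuts cohesin, went from 989.5 to 2488 (log2 change 1.33), and Sgo2a, which shields cohesin at centromeres, rose by 0.70. Both genes that fell encode cohesin subunits particular to meiosis and were dim in GV oocytes, Smc1b (85.8 to 13.3) and Stag3 (59.1 to 19.7). Rec8, the meiotic kleisin, had mean signals of 2.64 in GV and 2.29 in MII, at the bottom of the scale, so its change could not be read. In condensin, which compacts chromosomes, Ncapg2 rose by 1.01 and Smc4 by 0.68, the latter with another bright set that fell (3140.2 in GV and 388 in MII), and Ncaph changed by -1.12 and Ncaph2 by -1.37. The list's other called members, named after their values were seen, were Ncapd2 (1.09) and Ncapd3 (-0.30, with another set that rose).

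Among 30 spindle genes 13 rose and 10 fell (11 and 14 with control scaling), or 43.3% and 33.3%, against 25.1% and 22.2% over all genes. In the upper 30% of probe sets by signal 13 of 28 rose and 10 fell, close to the 3750 and 2975 of 8119 among all genes there. Tpx2, a spindle assembly factor whose mRNA is known to be translated during maturation, went from 719, 712, 718 and 759.9 to 1719.6, 1791, 1632 and 1661, a log2 change of 1.22 ± 0.06 (SE, adjusted p = 2.9e-12). Tacc3, which stabilises spindle microtubules, went from 2707, 2480.2, 2748 and 2722 to 128, 124, 113 and 116, a log2 change of -4.40 ± 0.10 (SE, adjusted p = 7.8e-17). Clasp1, which acts on microtubule ends, changed by -3.61, with another set, of low signal, called higher (20.4 in GV and 46 in MII), and the kinesin Kif20b by 1.04.

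mRNAs known to wait untranslated in the GV oocyte, the dormant maternal mRNAs, were more often higher than lower. Of 15 measured, 12 were called higher (80%) and 2 lower, against 25.1% of all genes and 3750 of 8119 genes in the upper 30% of probe sets by signal, where all of the list lies, with a median log2 change of 0.59 (0.22 to 0.64 under the alternatives). Dazl, an RNA-binding protein that promotes translation, had 2358, 1914, 1939 and 2097 in GV and 4419, 4342, 4865 and 4649.6 in MII, a log2 change of 1.14 ± 0.07 (SE, adjusted p = 1.5e-10). Cnot6l, a deadenylase subunit, had 3829, 3324, 3478 and 3682 in GV and 6949, 6652, 6711 and 6672 in MII, a log2 change of 0.92 ± 0.06 (SE, adjusted p = 5.5e-11). Both were higher on all MII arrays. Il7 rose by 1.26, the decapping factor Dcp1a by 0.81, the deadenylase Cnot7 by 0.58, the replication factor Orc6 by 0.86 and the protease Plat by 0.41, the last not called with control scaling or quantile normalization. Cdc6, which licenses replication origins, fell from 719.5, 693, 794 and 700.0 to 80.5, 83.6, 88.6 and 70.3, a log2 change of -3.07 ± 0.09 (SE, adjusted p = 2.5e-15), and the other fall was that of Wee2. Btg4, the adaptor that brings the deadenylase to maternal mRNAs, was bright, 7110.4 in GV and 9309 in MII (log2 change 0.39), and its rise was not called under quantile normalization or scaling to the hybridisation controls.

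The wider machinery of mRNA decay changed in both directions, 22 of 44 genes higher and 12 lower (15 and 18 with control scaling). These are 50% and 27.3%, against 25.1% and 22.2% over all genes. In the upper 30% of probe sets by signal 22 of 39 were higher and 10 lower, against 3750 and 2975 of 8119 among all genes. Cnot8 and Xrn2, a deadenylase and a nuclear exonuclease, rose by 1.22 and 1.51. Tob1, an adaptor related to Btg4, fell from 591, 488, 605 and 487 to 29, 25.2, 30.5 and 22.9, a log2 change of -4.04 ± 0.16 (SE, adjusted p = 9.3e-14). Cnot2, a scaffold of the deadenylase complex, changed by -1.64 with another set that rose (882 in GV and 1179 in MII), and the poly(A) ribonuclease Parn by -0.80. The decapping enzyme Dcp2 was not called (log2 change -0.18, adjusted p = 0.35).

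Of 16 genes that store mRNAs or control their translation 9 rose and 3 fell (7 and 5 with control scaling), against 25.1% and 22.2% over all genes. In the upper 30% of probe sets by signal 9 of 15 rose and 3 fell, against 3750 and 2975 of 8119 among all genes. Igf2bp3 and Ybx1, RNA-binding proteins, rose by 1.51 and 1.12. The germ cell relative Ybx2, a main protein of stored mRNPs, went from 558, 563, 523 and 602 to 151, 189.5, 211 and 187, a log2 change of -1.58 ± 0.13 (SE, adjusted p = 7.4e-09). Ybx1 and Ybx2 thus changed in opposite directions. Patl2, a translational repressor of the oocyte, changed by -2.05 and the poly(A) binding protein Pabpc1l by -0.55, the latter not called after quantile normalization. Zar1 and Lsm14b, which the oocyte needs to keep its stores, rose by 0.48 and 0.45, neither of which was called with control scaling, and Lsm14b also not after quantile normalization. Cpeb1, the protein that binds the cytoplasmic polyadenylation element, was not called (log2 change 0.11, adjusted p = 0.15).

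Polyadenylation genes fell more often than they rose, 11 against 7 of 22, with a median of -0.42. Control scaling gave 13 against 4, and the mean of probe sets turned the balance to 7 against 10 with a median of 0.06. Tent2, a cytoplasmic poly(A) polymerase, rose by 1.11. The nuclear polymerase Papolg changed by -3.23, with another set, of low signal, that rose (31.4 in GV and 56.8 in MII). Of 9 genes of the small RNA pathway 5 fell and 2 rose (4 and 0 by the mean of probe sets). Drosha, which cuts microRNA precursors in the nucleus, went from 1591, 1682, 2016 and 1873 to 173, 160.0, 167 and 159, a log2 change of -3.39 ± 0.15 (SE, adjusted p = 4.8e-13). Ago3, an Argonaute, changed by -1.96, with another set that rose (102 in GV and 234 in MII), and the further falls, named after their values were seen, were Tarbp2 (-3.25), Xpo5 (-2.88) and Dgcr8 (-0.94). Ago2, the slicing Argonaute, rose by 0.88, and Dicer1 by 0.75 on its chosen probe set with another set that fell (1692 in GV and 216 in MII).

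Ribosomal protein transcripts fell as a block. Of 44 measured genes for cytosolic ribosomal proteins 37 were called lower (84.1%), 33 of them by at least 2-fold, and none was called higher, with a median log2 change of -2.62 (-3.03 to -1.95 under the alternatives). Across all genes 22.2% were called lower. Rpl7, a protein of the large subunit, had 1862, 1973, 1843 and 1849 in GV and 39.7, 39.4, 41.5 and 49.2 in MII, a log2 change of -5.27 ± 0.09 (SE, adjusted p = 1.8e-18). Rps4x, of the small subunit, had 3758, 3402, 2952 and 3651 in GV and 149, 145, 147 and 162 in MII, a log2 change of -4.45 ± 0.07 (SE, adjusted p = 1.8e-18). The MII signals of both were a few percent of the GV signals. The control probe sets of 18S ribosomal RNA rose over the same arrays, as given above. Ribosomal protein genes have many near-identical pseudogene copies, and 35 of the 79 listed had no probe set assigned to them alone.

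Translation factors went both ways: 14 of 38 rose and 18 fell, against 25.1% and 22.2% over all genes. In the upper 30% of probe sets by signal 14 of 36 rose and 19 fell, against 3750 and 2975 of 8119 among all genes. Eef1a1, the carrier of aminoacyl-tRNA and one of the brightest genes of the GV oocyte, went from 6003, 4855, 5175 and 5838 to 423, 436, 492 and 427, a log2 change of -3.60 ± 0.08 (SE, adjusted p = 6.0e-17). Eef1d, part of its exchange factor, changed by -4.33. Eif4a2, a helicase of initiation, rose from 477, 513, 382 and 497 to 2042, 2023, 2028 and 2095, a log2 change of 2.13 ± 0.08 (SE, adjusted p = 6.9e-14). Eif5, which triggers subunit joining, rose by 1.11, although another probe set of it fell (342 in GV and 140.4 in MII).

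Nuclear transcripts for mitochondrial proteins shared the fall. For mitochondrial ribosomal proteins 60 of 74 genes were lower (81.1%) and 6 higher (2 with control scaling), with a median log2 change of -1.84 (-2.20 to -1.40 under the alternatives). Mrps22 went from 2634, 2620.4, 2814 and 2650.2 to 247, 246, 238 and 263, a log2 change of -3.40 ± 0.05 (SE, adjusted p = 1.5e-18), and Mrps25 changed by -3.85. Mrpl45 and Mrpl3 were exceptions and rose by 0.89 and 0.82. In oxidative phosphorylation 61 of 72 genes were lower (84.7%) and 5 higher (3 by the mean of probe sets), with a median of -2.21 (-2.58 to -1.74). Ndufa2, of complex I, went from 2280.5, 2229, 2024 and 2270.1 to 84.6, 116, 105 and 94.1, a log2 change of -4.38 ± 0.08 (SE, adjusted p = 1.0e-17), and Atp5j2, of ATP synthase, changed by -4.03. The 5 that rose were Ndufa10 (1.01), Uqcrc2 (0.79) and, named after their values were seen, Cox8a (0.90), Atp5b (0.70) and Sdha (0.55, not called with control scaling).

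Central carbon metabolism was divided, 11 of 36 genes higher and 19 lower (6 and 23 with control scaling). Mdh2, the mitochondrial malate dehydrogenase, had 2804, 2747, 2409.7 and 2758 in GV and 89.3, 94.1, 86.8 and 94.7 in MII, a log2 change of -4.78 ± 0.08 (SE, adjusted p = 2.9e-18). Its MII signals were a few percent of the GV signals. Dlst, of the oxoglutarate dehydrogenase complex, changed by -2.73. Pdk1, which shuts down pyruvate dehydrogenase, rose by 1.27, and Suclg2 by 0.91. Antioxidant genes were lower in 7 cases and higher in 5 of 18 (11 and 3 with control scaling). These are 38.9% and 27.8%, against 22.2% and 25.1% over all genes. Sod1, the cytosolic superoxide dismutase, went from 4723, 4588, 4516 and 4782 to 763, 775, 683 and 728, a log2 change of -2.65 ± 0.06 (SE, adjusted p = 4.4e-17), with another set, of low signal, that rose (47.1 in GV and 78.7 in MII). Txn1 (thioredoxin) changed by -1.27, and Gclm, for glutathione synthesis, rose by 1.18. The other rises were Prdx2 (0.59), which was not called with control scaling and whose other set fell (3841 in GV and 2205 in MII), and, named after their values were seen, Gclc (1.01), Txnrd1 (0.96) and Nfe2l2 (0.37). The call of Nfe2l2 was lost with control scaling, with median centring, and without GV array 4, MII array 1, MII array 2 or GV arrays 3 and 4 together.

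More genes of protein turnover and folding fell than rose. Proteasome genes were lower in 25 of 39 cases (64.1%) and higher in 10 (5 with control scaling), against 22.2% lower and 25.1% higher over all genes. Their median log2 change was -0.92 (-1.29 to -0.83 under the alternatives). Psmb4, of the core, went from 2863, 2888, 2562 and 2542 to 132, 118, 147 and 154, a log2 change of -4.24 ± 0.09 (SE, adjusted p = 1.9e-17), and Psmc3, an ATPase of the cap, changed by -4.09. Psmd1, a scaffold of the same cap, rose from 898, 879, 1039 and 1032 to 3221, 3259, 3081 and 3200.3, a log2 change of 1.73 ± 0.07 (SE, adjusted p = 9.8e-14). Psma7 rose by 1.00. Among cullin ligases and their regulators 14 of 26 rose, Skp2 by 1.27 and Cul1 by 0.70, and 10 fell, with Cops4 at -3.03 beside Cops6; with control scaling 8 rose and 10 fell.

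Of 43 chaperone and stress response genes 27 were lower and 10 higher (5 with control scaling), against 22.2% and 25.1% over all genes. Their median was -0.86 (-1.24 to -0.74 under the alternatives). Cct5, of the ring that folds tubulin and actin, went from 3689.9, 3500.3, 3715 and 3766 to 311, 325, 299 and 336, a log2 change of -3.50 ± 0.06 (SE, adjusted p = 2.8e-18), and Cct2 changed by -2.91. Hsp90b1 and Atf6, of the endoplasmic reticulum, rose by 1.56 and 1.59, both with another set that fell (for Hsp90b1, 1563 in GV and 428 in MII). Autophagy and lysosome genes were higher in 9 and lower in 12 of 26: Becn1 rose by 1.27 and Atg16l1 by 1.09, while Map1lc3a, a coat protein of autophagosomes, changed by -3.02 and the protease Ctsb by -2.09.

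**Figure D4:**
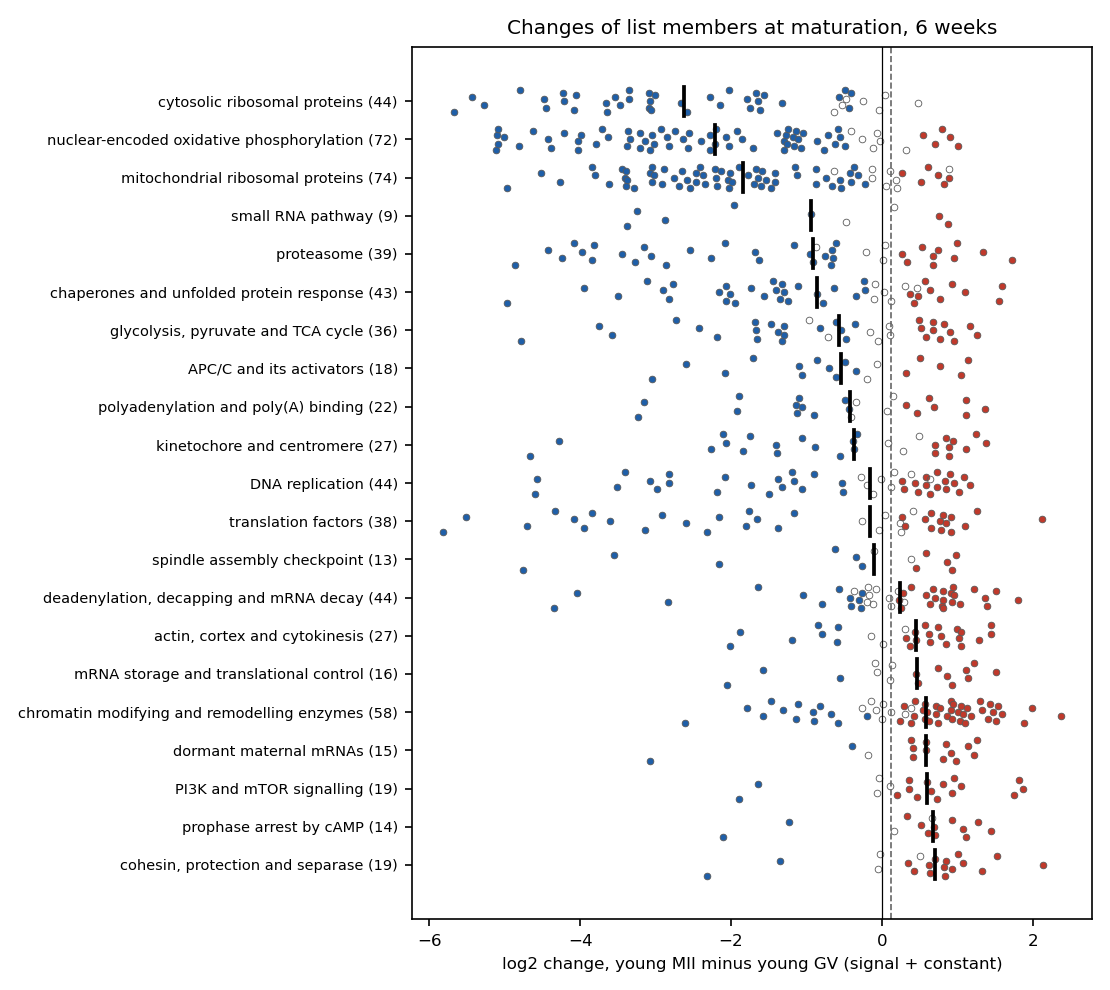
Log2 change from GV to MII at 6 weeks of the measured members of 21 gene lists (number in brackets), ordered by their median (black bar); filled points are called (red, higher; blue, lower), open points are not, and the dashed line is the median of all genes (0.12). Cytosolic ribosomal proteins, oxidative phosphorylation and mitochondrial ribosomal proteins have medians of -2.62, -2.21 and -1.84, and cohesin has the highest of these lists, 0.70.

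Transcripts of the oocyte's coat fell, and those of its growth factors were slightly higher with the scaling of the authors. Zp2, which binds sperm in the zona pellucida, had 5662, 4582, 4782 and 5755 in GV and 916, 845, 1193 and 1195 in MII, a log2 change of -2.33 ± 0.10 (SE, adjusted p = 7.1e-13). Zp1 and Zp3, the other coat proteins here, changed by -1.49 and -1.67. Gdf9, a growth factor for the cumulus cells, had 7542, 6697, 6191 and 8052 in GV and 10395, 9125, 9559.6 and 9335 in MII, a log2 change of 0.44 ± 0.08 (SE, adjusted p = 1.4e-04). Its partner Bmp15 rose by 0.56, the receptor Kit by 0.70, the secreted Oosp1 by 0.42 and the hardening protease Astl by 0.43. These small rises were called with the scaling of the authors, but of Gdf9, Bmp15, Kit, Oosp1 and Astl only Kit was called with control scaling, and Gdf9, Oosp1 and Astl were not called after quantile normalization. Both egg surface proteins of sperm binding and fusion fell, Cd9 from 521 to 44 (log2 change -3.44) and Izumo1r, also called Juno, from 677 to 266 (-1.32). Fgf8, a signal to cumulus cells, fell from 366 to 30.8. Of the 15 genes of this list 6 rose and 8 fell, or 1 and 9 with control scaling and 2 and 8 after quantile normalization.

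The subcortical maternal complex, a structure under the egg cortex that early cleavage needs, was lower in Padi6, Nlrp5, Tle6, Ooep and Khdc3, 5 of its known members. Padi6 went from 5192, 4390.1, 4179 and 5191 to 935, 887, 944 and 992, a log2 change of -2.32 ± 0.07 (SE, adjusted p = 3.0e-15). Nlrp5, also called Mater, changed by -1.32, Tle6 by -1.12, Ooep by -0.53 and Khdc3 by -2.71. The stages did not overlap in any of these 5 genes. The wider list of maternal-effect genes had 10 of 20 higher and 8 lower (3 and 10 with control scaling, 4 and 10 after quantile normalization). H1f8, the linker histone of the oocyte, rose by 0.82, Tcl1 by 0.72 and Dppa3, which guards maternal methylation, by 0.46, the last not called with control scaling or quantile normalization. Of 14 oocyte transcription factors 7 rose and 4 fell (4 and 5 with control scaling). Nobox, needed for follicle formation, went from 2411, 1742, 1971 and 2231 to 294, 235, 257 and 285, a log2 change of -2.93 ± 0.11 (SE, adjusted p = 1.0e-13), Figla, an activator of the zona genes, changed by -3.75 and Lhx8 by -1.33; the fourth fall, named after its value was seen, was Sebox (-1.01). Obox5 and Taf4b rose by 0.59 and 1.16, and Pou5f1 was not called (log2 change 0.13, adjusted p = 0.39).

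Most chromatin enzymes rose: 37 of 58 were higher (63.8%) and 13 lower (over all genes, 25.1% and 22.2%). In the upper 30% of probe sets by signal 36 of 52 were higher, against 3750 of 8119 among all genes. The median was 0.58 (0.21 to 0.72 under the alternatives, 0.12 over all genes). Besides Kdm6b, Kmt2c, a methyltransferase of lysine 4 of histone H3, rose by 1.43, and Smarca4, the motor of the SWI/SNF remodeller, rose from 273, 267, 222 and 299.5 to 1153, 987, 1032 and 1111 (log2 change 1.99 ± 0.11), with another set that fell (394 in GV and 211 in MII). Smarcb1, a core subunit of that remodeller, changed by -1.78 and the acetyltransferase Kat8 by -2.61. DNA methylation genes were mixed, 7 higher and 6 lower of 17 (5 and 6 with control scaling). Dnmt1, the maintenance methyltransferase, changed by -0.47, Mbd1 by -3.13 and Dnmt3b by 0.97, and Dnmt3a, the enzyme that sets oocyte methylation, was not called (log2 change 0.08, adjusted p = 0.54).

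Other nuclear machines divided about evenly with the scaling of the authors. For RNA polymerase II and its general factors 17 of 40 genes rose and 15 fell (14 and 18 with control scaling, 13 and 15 by the mean of probe sets): Taf4 rose by 1.99 and Taf13 by 1.02, and the polymerase subunits Polr2i and Polr2b changed by -3.14 and -2.30. Spliceosome genes were higher in 19 and lower in 21 of 45 (11 and 23 with control scaling, 20 and 15 by the mean of probe sets). Snrpg and Snrpc, proteins of the small nuclear RNPs, changed by 1.26 and -2.91, and the splicing factors Srsf4 and Srsf1 by 1.37 and -2.55. Nuclear envelope and pore genes rose in 16 and fell in 13 of 40 cases (8 and 18 with control scaling). Lmna (lamin A) went from 755 to 44.4 (log2 change -3.93), with another set, of low signal, that rose (31.7 in GV and 55.5 in MII), and the pore scaffold Nup133 changed by -3.56, while Seh1l and Sun1 rose by 1.12 and 0.98.

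Over all measured members, replication and repair genes fell in more cases than they rose, 20 against 16 of 44 and 20 against 14 of 42 (22 against 9 with control scaling for repair). Over all genes 22.2% fell and 25.1% rose. In the upper 30% of probe sets by signal 17 of 39 replication genes fell and 17 rose, and 18 of 33 repair genes fell and 14 rose. Among all genes there, 2975 of 8119 fell and 3750 rose. Gins1, of the replicative helicase, changed by -2.82 beside Cdc6, and Mcm2 and Rpa3, for the helicase core and for single-stranded DNA, rose by 1.03 and 1.16. Rad50, of the complex that senses breaks, went from 660.3 to 197 (log2 change -1.71) and the ubiquitin ligase Rnf8 changed by -1.30. Mdm2, the ligase for p53, and Msh6, of mismatch repair, rose by 1.57 and 1.14.

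Of 27 actin and cytokinesis genes 17 rose and 7 fell (9 and 9 with control scaling), with a median of 0.45 (0.08 to 0.52 under the alternatives). Fmn2, the formin that moves the spindle to the cortex, went from 1389, 1409, 1373 and 1262 to 3329.8, 3398, 3097 and 3441, a log2 change of 1.28 ± 0.06 (SE, adjusted p = 3.7e-12), Arpc2 rose by 1.03, Actg1 (cytoplasmic actin) changed by -2.02 and cofilin (Cfl1) by -0.85. Of 19 genes of PI3K and mTOR signalling 14 rose (73.7%) and 2 fell (7 and 3 with control scaling, 9 and 2 by the mean of probe sets). Over all genes 25.1% rose and 22.2% fell. The median of the list was 0.60 (0.23 to 0.71). Pdpk1, the kinase that switches on AKT, went from 757, 804, 863 and 794 to 2649, 2748, 2733 and 2744, a log2 change of 1.75 ± 0.06 (SE, adjusted p = 2.3e-14), and Foxo1 rose by 1.88 with another bright set that fell (1451 in GV and 560.0 in MII). The falls were of Pik3c3, the lipid kinase of autophagy (-1.89), and Rps6, a ribosomal protein that the pathway phosphorylates (-1.64). In calcium signalling, which the sperm sets off, Itpr2, a release channel, rose by 1.35 and the pump Atp2b1 by 1.15, and Stim2, a sensor of the store, changed by -1.70; 5 of 18 genes rose, the others being Atp2a2 (0.43), Ppp3r1 (0.67) and Orai1 (0.86, with another set that fell), of which Orai1 alone was called with control scaling, all 3 named after their values were seen, and 6 fell (3 and 7 with control scaling, 7 and 5 after quantile normalization, 5 and 2 by the mean of probe sets). Apoptosis genes rose in 6 and fell in 4 of 20 cases (3 and 5). These are 30% and 20%, close to the 25.1% and 22.2% over all genes, and the calcium list had 27.8% and 33.3%. The killer Bcl2l11 rose by 1.21 and the scaffold Apaf1 by 1.17. The falls were of the protector Mcl1 (-0.85) and of Bad (-1.93), with Diablo (-0.40) and Bcl2l1 (-0.30, with another set that rose) named after their values were seen, neither called without GV arrays 3 and 4 and Diablo also not after quantile normalization (-0.06).

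The change at 6 weeks was set against the change at 66 weeks, whose log2 values come from other arrays. The calls at both ages share 1 estimate of the spread and 1 choice of probe sets, both taken over all 16 arrays. Across the 18193 genes the log2 changes correlated at 0.913, given as a description since genes are not independent replicates. Of the 1655 genes at least 2-fold higher at 6 weeks, 1433 were also called higher at 66 weeks (86.6%), and 2 were called lower: Foxn4 and Stk17b, both dim (25.5 to 56.7 and 12.7 to 31.8 at 6 weeks) and named after their values were seen. Neither rise was called with control scaling, without GV array 3 or without GV arrays 3 and 4, and that of Stk17b also not without GV array 4, MII array 1 or MII array 3. Of the 2784 at least 2-fold lower, 2642 were called lower at 66 weeks (94.9%) and none higher. The test of the difference between the ages called 1080 genes (5.94%), 506 with a more positive change at 6 weeks (2.78%) and 574 with a more negative one (3.16%). Over probe sets it called 2052 (4.56%), 995 more positive (2.21%) and 1057 more negative (2.35%) at 6 weeks, and 1006 in all with control scaling.

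Where the ages differed with the same direction at both, the change at 6 weeks was the larger one in more of the genes. Of 461 such genes called higher at both ages 297 rose more at 6 weeks, and of 298 called lower at both 235 fell more. Tet3 rose by 3.12 at 6 weeks and by 2.07 at 66 weeks, a difference of 1.04 ± 0.27 (SE, adjusted p = 0.028), and Kdm6b by 2.38 and 1.02, a difference of 1.35 ± 0.12 (SE, adjusted p = 5.3e-06). Both were named for their rise at 6 weeks, a choice that favours a larger change at that age. List members, whether they rose or fell, were named by their smallest adjusted p at 6 weeks, which favours it too. Cdk1 changed by -3.81 at 6 weeks and -2.64 at 66 weeks, a difference of -1.17 ± 0.15 (SE, adjusted p = 1.5e-04), and Mdh2 by -4.78 and -3.68 (adjusted p of the difference = 3.2e-05). Plk1, without a call at 6 weeks, changed by -0.64 at 66 weeks (adjusted p of the difference = 0.0036), and for Dnmt3a the change at 6 weeks minus that at 66 weeks was -1.52 ± 0.12 (SE, adjusted p = 1.8e-06). Of the lists, the median of the cytosolic ribosomal proteins was -2.62 at 6 weeks and -2.06 at 66 weeks, with 11 of 44 genes called different, and that of oxidative phosphorylation -2.21 and -1.92, with 21 of 72. Gja1, a granulosa cell gene that was uneven among young GV arrays, changed by -1.50 and -5.26. It and Fst (mean GV signal 43.7 at 6 weeks and 129 at 66 weeks) were the 2 of 23 cumulus and granulosa markers called different. The log2 3′ to 5′ ratio of actin was 2.65 to 3.27 on the young arrays and 3.28 to 3.99 on those of 66 weeks. That of Gapdh overlapped, at 2.43 to 2.92 and 2.51 to 3.08. The 18S 3′ set gave 1103 to 1687 on young MII arrays and 5815 to 6317 on those of 66 weeks. The 18S 5′ set went the other way, with 4895.5 to 5112 on young MII arrays and 4078 to 4450 on those of 66 weeks. The part of these shifts in the age differences was not tested.

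**Figure D5:**
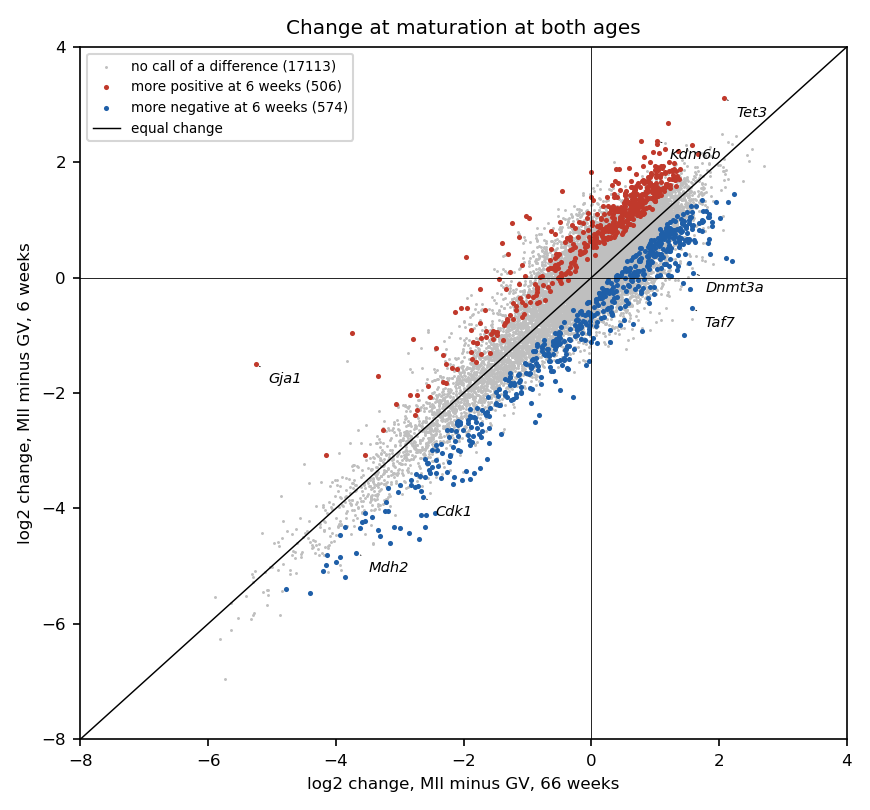
Log2 change from GV to MII at 66 weeks (x) and at 6 weeks (y) for 18193 genes; red and blue points are the 506 and 574 genes whose changes were called different, more positive and more negative at 6 weeks, and the line marks equal changes. Most genes follow the line (r = 0.913), Tet3 and Kdm6b lie above it, Cdk1 and Mdh2 below it, and Gja1 lies far above it.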

How the data were processed

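Total RNA of the oocytes was extracted with a Picopure kit and labelled with Affymetrix's small sample assay, version II, per the labels' protocols. The authors deposited 1 table of signal intensity for 45101 probe sets on 16 arrays. They are linear MAS5 values, scaled by the authors so that the trimmed mean (2% left off at each end) of every array is 150. The version of MAS5 is not given in the sources used here, and detection calls were not used here.

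The 64 control probe sets were left out of the tests. The constant of 6.49, the 20th percentile of all signals, was added and log2 taken. With limma 3.58.1 in R 4.3.3 the 4 groups of 4 arrays were fitted as group means with a mean-dependent prior, giving 12 residual degrees of freedom. Values called "changed", "rose" or "fell" have a Benjamini-Hochberg adjusted p under 0.05 over 45037 probe sets. Every adjusted p in the text is from this fit unless another setting is named with it. The files of the series' platform name 1 gene for 34958 probe sets, several for 932 and none for 9211, and 34754 of the symbols were brought up to date through gene identifiers. A gene (18193 in all) is the probe set of highest mean log2 signal among those with 1 gene. On simulated data with known changes the fit recovered fewer of the 2-fold changes than the limit first set, and that limit was then lowered, with the fit unchanged, so changes of about 2-fold or less may be missed. Single array measures were compared by exact two-sided permutation tests. No array pair was identical, and the number of arrays limits the precision.

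Gene lists (42, with 1136 of 1254 genes measured) and the genes named were chosen with earlier results of these data known, so the counts of a list are a description. Named were the 12 largest rises and 12 largest falls among called genes whose stages do not overlap and whose higher stage has a mean signal of at least 300, up to 2 called members each way of each list by smallest adjusted p, a fixed set of well known genes, and markers of other cells; others are said to be named after their values were seen. Settings tried were median centring, quantile normalization, the constant divided by 4 and times 4, the upper 50% and 30% of probe sets by signal, young arrays alone, a block for the replicate number, a random block for neighbouring arrays, and leaving out each young array. Scaling to 18 hybridisation controls, leaving out GV arrays 3 and 4 together and taking a gene as the mean of its probe sets were added after seeing the data.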

Additional observations from a re-analysis of the deposited data

Results flagged for a closer look

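In 27 of 512 groups of 4 arrays that were tested, one per named gene or array measure and stage, 1 array stood apart: its distance from the nearest other array, as a share of the range of the 4, was over Dixon's critical value. Chance does this in about 5% of groups, so the number is close to what chance gives. Each value is that share, taken on log2 of the signal plus the constant, with the linear signal of the array and the range of the other arrays. On GV array 1 these were Cdk1 at 0.939 (1831, others 1570.0 to 1585) and Foxn4 at 0.867 (48.4, others 16.8 to 19.6). On GV array 2 these were Fgf8 at 0.862 (440.3, others 334 to 347), Rpl7 at 0.847 (1973, others 1843 to 1862) and Tacc3 at 0.853 (2480.0, others 2707 to 2748). On GV array 3 these were Figla at 0.906 (227, others 299 to 308), Mad2l1bp at 0.918 (143, others 172 to 174), Mdh2 at 0.864 (2410.0, others 2747 to 2804) and Mrps22 at 0.841 (2814, others 2620.0 to 2650.0). On GV array 4 these were Dcp2 at 0.95 (268, others 348 to 353), Rps6ka3 at 0.846 (305, others 275 to 279), Stim2 at 0.877 (209, others 239 to 244) and Tpx2 at 0.853 (759.9, others 712 to 719). On MII array 1 these were Hsd3b1 at 0.917 (21.4, others 5.2 to 6.08), Msh6 at 0.865 (3104, others 3262 to 3288), Pdpk1 at 0.848 (2649, others 2733 to 2748) and Ptx3 at 0.92 (19.7, others 38.2 to 40.3). On MII array 2 these were Ago2 at 0.846 (274, others 316 to 324), Diablo at 0.868 (119.7, others 133 to 136), E2f2 at 0.891 (875, others 782 to 792) and Polr2i at 0.872 (152, others 175 to 179). On MII array 3 these were Arpc2 at 0.877 (4851, others 4574 to 4607) and Eif5 at 0.856 (5234, others 4831 to 4887). On MII array 4 these were Ago3 at 0.891 (132, others 168 to 173), Atf6 at 0.914 (844, others 783 to 788), Gpr3 at 0.871 (994, others 846 to 864) and Rps19 at 0.851 (3.65, others 1.21 to 1.53).

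For 53 of the named genes the test of the difference itself, the interaction of stage and age in limma with Benjamini-Hochberg adjustment over all probe sets, called the change at 6 weeks different from that at 66 weeks. Each value is the log2 change at 6 weeks minus that at 66 weeks, 4 arrays a group. The log2 change was positive at both ages and larger at 6 weeks for Tanc2 (1.58), Thumpd1 (1.49), Kdm6b (1.35), Arhgap28 (1.29), Sema5a (1.21), E2f2 (1.09), Piwil1 (1.07), Tet3 (1.04), Phlda1 (0.85), Gna13 (0.72), Taf4 (0.70), Gpr3 (0.57), Fmn2 (0.54), Bmp15 (0.52), Foxo1 (0.48), Msh6 (0.48), Nipbl (0.46), Hsp90b1 (0.43), Sgo2a (0.39), Ncapg2 (0.37), Kit (0.35) and Cenpa (0.29). It was positive at both ages and smaller at 6 weeks for Dnmt3a (-1.52), Anapc10 (-0.51), Ndufa10 (-0.39), Lsm14b (-0.38), Prdx2 (-0.33), Uqcrc2 (-0.32), Orc6 (-0.31) and Map2k1 (-0.25). It was negative at both ages and deeper at 6 weeks for Cdk1 (-1.17), Mdh2 (-1.10), Tob1 (-0.86), Birc5 (-0.77), Nlrp5 (-0.72), Zp2 (-0.69), Psmb4 (-0.65), Mrps22 (-0.65), Eef1a1 (-0.60), Cenpm (-0.59), Polr2b (-0.59), Ncaph (-0.54), Cct2 (-0.47), Eef1d (-0.47) and Txn1 (-0.36). It was negative at both ages and less deep at 6 weeks for Gja1 (3.75), Cdc6 (0.47) and Rnf8 (0.28). The sign differed between the ages for Foxn4 (2.09), Stk17b (2.00), Txnrd1 (1.16), Plk1 (0.81) and Rps6ka3 (-0.55); a change that was not called at one age has no direction there. The genes named as the largest rises and falls, and the list members named by smallest adjusted p, were chosen by their change at 6 weeks. Such a choice favours a larger change at that age. Gja1 and Foxn4 are dim or uneven among the young GV arrays, and the part of that in their differences was not tested.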

How the results depend on the processing

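The direction and rough size of the change held in number under most settings: leaving out 1 young array gave 15241 to 15696 called probe sets (8205 to 8737 higher and 6956 to 7037 lower), and median centring, quantile normalization, the constant divided by 4 and times 4 gave 15696, 16716, 16220 and 16336. With 4 times the constant 2178 probe sets were at least 2-fold higher, against 3472. Among the brightest 30% of probe sets, where fewer are tested, 4752 were lower, 2312 at least 2-fold higher and 3075 at least 2-fold lower. Scaling to the hybridisation controls, added after seeing the data, gave 4568 probe sets higher and 10706 lower, 1136 at least 2-fold higher, 2559 genes higher, and 1006 probe sets that differed between the ages; it lowers MII relative to GV by 0.37 on the log2 scale in the median probe set. Under it the log2 change turned to -0.00665 for Cdca8, -0.0888 for Nr5a2, -0.0425 for Anapc1, -0.0803 for Kitl and -0.000867 for Nfe2l2, and quantile normalization turned that of Btg4 to -0.00889; the cause was not tested.

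Same-numbered GV and MII arrays deviated from their group means with correlations of 0.010, 0.094, 0.062 and 0.009. Arrays of different number gave -0.088 to 0.050, and for 2 of 4 numbers the same-numbered MII array was the best match. With so few arrays this does not settle whether replicate numbers pair them. With the replicate block 16207 probe sets were called (8998 higher, 7209 lower), 3474 and 5036 of them at least 2-fold, with 4557 and 4025 genes and 2040 age differences; of the named genes only Gja1 and Kitl were no longer called. A random block for neighbouring arrays had a correlation of -0.006 and gave 16329. Without GV arrays 3 and 4 together 14016 were called, 3978 and 3727 genes, 2165 age differences.

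Of 246 genes in the text 237 were called, and over 19 settings their 4639 values were called in the same way in 4488 cases, no longer called in 133, newly called in 12 and of the other sign in 6. Of those not called, Aurka was called lower in 7 settings and Plk1 higher in 2. Dcp2 and Rec8 were called lower in 1 setting each, and Pde3a higher in 1. Dim probe sets limit the rest: a fall to the level of the constant has no firm size.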

Other observations

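Probe sets of one gene did not always move together. Of 9010 genes with several probe sets, 995 had one called higher and another called lower in MII eggs, and for 279 both changes were at least 2-fold. Among risen genes with several probe sets 590 of 3062 (19.3%) had another set called lower, and among fallen genes 339 of 2083 (16.3%) had another called higher. Of the 12 largest rises 8 had several probe sets, and 6 of these (75%) had another set called lower. Of the 12 largest falls 5 had several, and 1 of these (20%) had another called higher. Camk2g, a kinase of the calcium response at fertilization, is an example chosen after its values were seen: one probe set went from a mean signal of 460 to 2106, and another from 2981 to 736. Dicer1, Mastl, Smc4 and Foxo1, described above, show the same. Which part of a transcript each probe set reads was not analysed here, and the cause was not tested.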
